A study of Arabidopsis thaliana with 8 samples.

Results

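The Aux/IAA genes IAA1 (AT4G14560), IAA2 (AT3G23030), IAA3 (AT1G04240), IAA5 (AT1G15580), IAA6 (AT1G52830), IAA7 (AT3G23050), IAA14 (AT4G14550), IAA17 (AT1G04250), IAA19 (AT3G15540) and IAA29 (AT4G32280) were followed in maps of accessible chromatin from Arabidopsis thaliana shoots. They were chosen by name, as 10 of 27444 protein-coding genes on the 5 nuclear chromosomes. A peak was assigned to a gene when it overlapped the gene or 1000 bp on either side by at least 1 bp. The assay was ATAC-seq, in which the Tn5 transposase cuts and tags DNA where chromatin is open. The plants were RIL149 and RIL50, inbred mosaics of the accessions Ler and Cvi, which the series text contrasts for their rate of spontaneous CG epimutation. The labels name no transgene, mutation or treatment in either line. Lineages 1 and 2 of each line were sampled at generations 3 and 10, for 8 libraries in all (4 of each line, 4 of each generation). Shoots were taken from plate-grown plants aged 7 to 9 days, kept at 25 °C under long days. Single plants and pools are not told apart in the labels, so the spread behind every p-value is that between libraries and may be technical. Generation also goes with sublineage (1 at generation 3, 2 at generation 10), except in RIL149 lineage 2, where both libraries are of sublineage 1.

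Aux/IAA proteins are short-lived repressors of the auxin response. At low auxin they bind ARF transcription factors on DNA and recruit TOPLESS corepressors; auxin binds them to the TIR1/AFB receptors, which mark them for degradation. Many Aux/IAA genes are themselves switched on by auxin within minutes, so the family forms a feedback loop. Dominant mutants of single members shaped their names: IAA3 is SHORT HYPOCOTYL 2, IAA7 is AUXIN RESISTANT 2, IAA14 is SOLITARY ROOT, IAA17 is AUXIN RESISTANT 3 and IAA19 is MASSUGU 2.

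Each library is known from its own list of MACS2 peaks, which holds no read counts. The lists held 13186 to 21540 nuclear peaks, fewest in RIL149 generation 3 lineage 2 and most in RIL149 generation 10 lineage 2. Depth itself is not in the lists. Its stand-in here was the background pileup that the peaks' own fold and p imply, which is not a measured depth. This pileup ranged from 11.8 to 20.6 in RIL149 and from 8.71 to 25.3 in RIL50. In RIL50 the lowest went with 19193 peaks and the highest with 18447. In RIL149 the highest went with the most peaks. A gene without a listed peak had none called in that library, which need not mean closed chromatin. The part of depth in such gaps was not tested. All 3 shoot markers (RBCS1A, LHCB1.3 and LHCA1) had peaks in all 8 libraries. Of 7 root markers, CASP1 had a peak in 8 libraries, WOX5 in 5, SMB in 1, and BRN2, PLT1, PLT2 and RHD6 in 0.

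All 10 genes had a peak in at least 1 library, as did 73.4% of all protein-coding genes, and 6 had one in all 8: IAA2, IAA3, IAA5, IAA7, IAA19 and IAA29. For all protein-coding genes that share was 45.2%. The 8 lists together held 100 peaks at the 10 genes, which merged into 14 regions, 7 of them open in every library. In 7 of the 10 genes the summit of the strongest peak was within 300 bp of an end, against 57.8% of all genes with a peak. The gene table used here gives no strand, so ends are named by coordinate and not as promoters. In the 7 regions open in every library, the summits of the strongest peak of each library fell within 33 to 173 bp of each other.

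**Figure D1:**
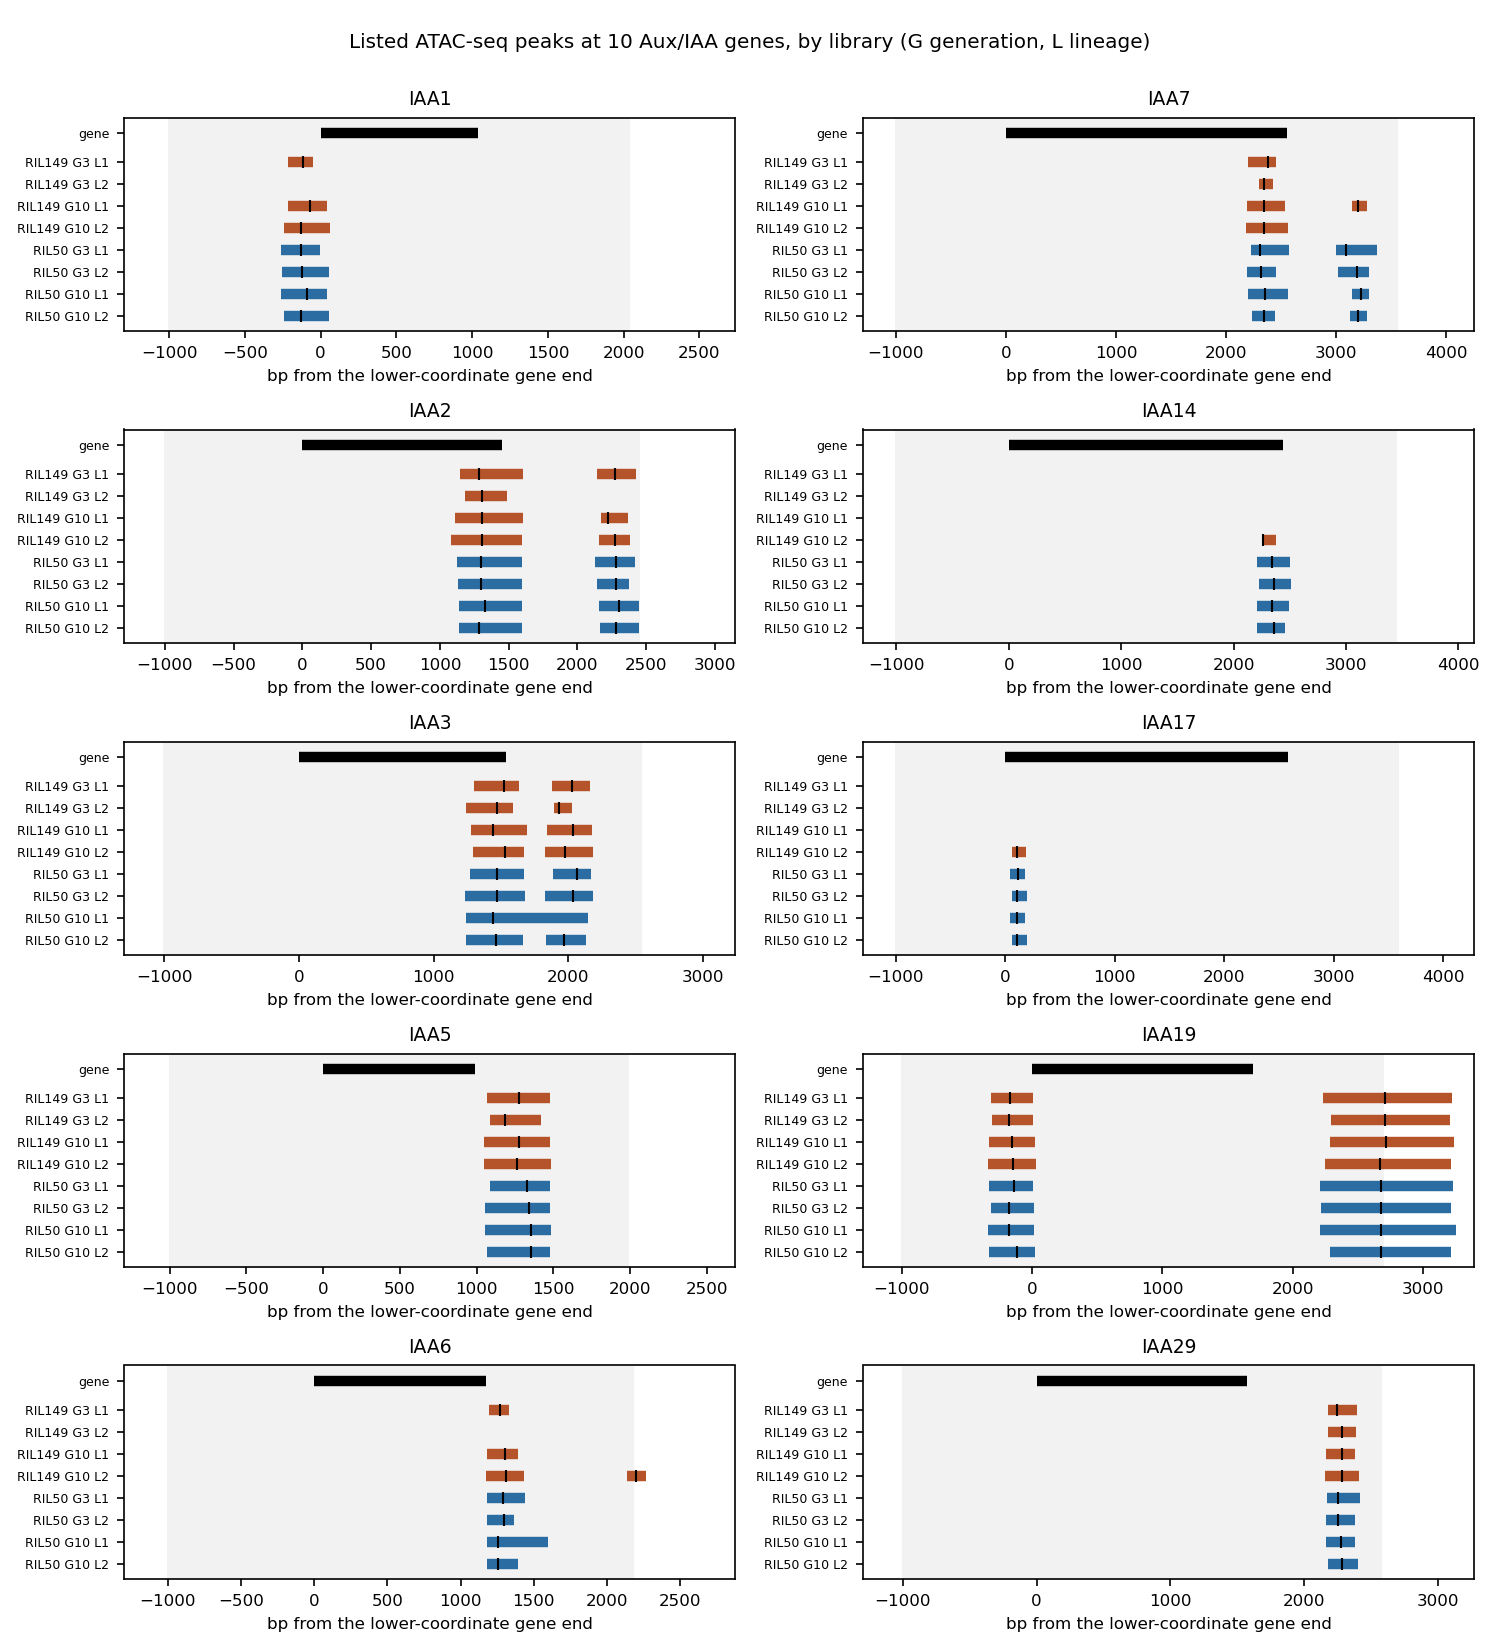
Map of the listed peaks at each gene, 1 row per library (orange RIL149, blue RIL50), with the summit as a black tick, against distance in bp from the lower-coordinate gene end; the black bar is the gene and the grey band the window of 1000 bp on either side. IAA14 and IAA17 have a peak in all 4 RIL50 libraries and in 1 RIL149 library, while IAA2, IAA3, IAA5, IAA7, IAA19 and IAA29 have one in every library.

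IAA19, which acts in hypocotyl tropism and elongation, had the highest median covered length of the 10 genes, 796 bp over the 8 libraries. Peaks covered 782 and 714 bp of its window in RIL149 generation 3 (lineages 1 and 2), 757 and 817 bp in RIL149 generation 10, 827 and 810 bp in RIL50 generation 3, and 840 and 767 bp in RIL50 generation 10. The lines and the generations overlapped. One region spanned the lower-coordinate end (chromosome 3, 5263661 to 5264028, TAIR10), with summits 117 to 174 bp outside the gene and folds of 7.03 to 9.17. The fold is the authors' enrichment of a peak's summit over local background and is given here to describe peaks within their lists. A second, broader region (chromosome 3, 5266209 to 5267251) had summits 980 to 1020 bp beyond the other end and folds of 8.14 to 11.6, and overlapped the neighbouring gene AT3G15548. Its peaks, 917 to 1040 bp wide, outranked 82.6% to 95.2% of the peaks of their own lists.

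IAA29, a gene known for its induction by shade, was open beyond its higher-coordinate end. Its region (chromosome 4, 15585491 to 15585750) had its summits 677 to 710 bp from that end and overlapped the neighbouring gene AT4G32285. The peaks were narrow, 214 to 251 bp, and strong, with folds of 6.51 to 12.0. Covered length was 224.75 ± 17.7 bp in RIL149 and 228.25 ± 16.0 bp in RIL50 (SD, n = 4 each). With a window of 500 bp, IAA29 had a peak in 0 libraries.

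IAA3 and IAA2 carried peaks across the higher-coordinate end and weaker ones outside it. At IAA3 both fell in 1 merged region (chromosome 1, 1129385 to 1130335), in which the stronger peaks had folds of 6.92 to 8.79. A separate outer peak was listed in 7 libraries, and in RIL50 generation 10 lineage 1 both were listed as 1 peak of 906 bp. Covered length at IAA3 was 650.5 ± 124 bp in RIL149 and 779 ± 98.5 bp in RIL50 (SD, n = 4 each), and the lines overlapped. At IAA2, an early auxin-induced gene, the main region (chromosome 3, 8181727 to 8182251) was present in all 8 libraries with folds of 5.69 to 10.6, and the outer one (chromosome 3, 8182775 to 8183097) in 7. Covered length at IAA2 was 740 and 303 bp in RIL149 generation 3, 696 and 748 bp in RIL149 generation 10, 773 and 706 bp in RIL50 generation 3, and 755 and 741 bp in RIL50 generation 10. The low value was that of RIL149 generation 3 lineage 2, the library without the outer peak.

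IAA5 had a single region just outside its higher-coordinate end (chromosome 1, 5366559 to 5366998), 299 bp from the next gene, AT1G15590. Covered length was 402.5 ± 47.5 bp in RIL149 and 413.25 ± 20.4 bp in RIL50 (SD, n = 4 each). Its summits were the most scattered of the regions open in every library, over 173 bp. In RIL149 generation 3 lineage 2 its fold was 2.44, and elsewhere it was 3.81 to 5.57.

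IAA1 and IAA6 had a peak in 7 libraries and lacked one in RIL149 generation 3 lineage 2. IAA1, known for an auxin-resistant mutant, was open just outside its lower-coordinate end (chromosome 4, 8360732 to 8361059). Its covered length was 165 and 0 bp in RIL149 generation 3, 257 and 304 bp in RIL149 generation 10, 263 and 309 bp in RIL50 generation 3, and 304 and 302 bp in RIL50 generation 10. IAA6 was open outside its higher-coordinate end (chromosome 1, 19673650 to 19674072). Its covered length was 134 and 0 bp in RIL149 generation 3, 218 and 299 bp in RIL149 generation 10, 261 and 189 bp in RIL50 generation 3, and 419 and 214 bp in RIL50 generation 10. At both genes the lowest values were those of RIL149 generation 3, and the lines overlapped. A peak in every library but RIL149 generation 3 lineage 2 was a common pattern, shared by 1770 other genes (8.79% of genes with a peak). Of the auxin lists, IAA13, YUC8 and SAUR19 had it.

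**Figure D2:**
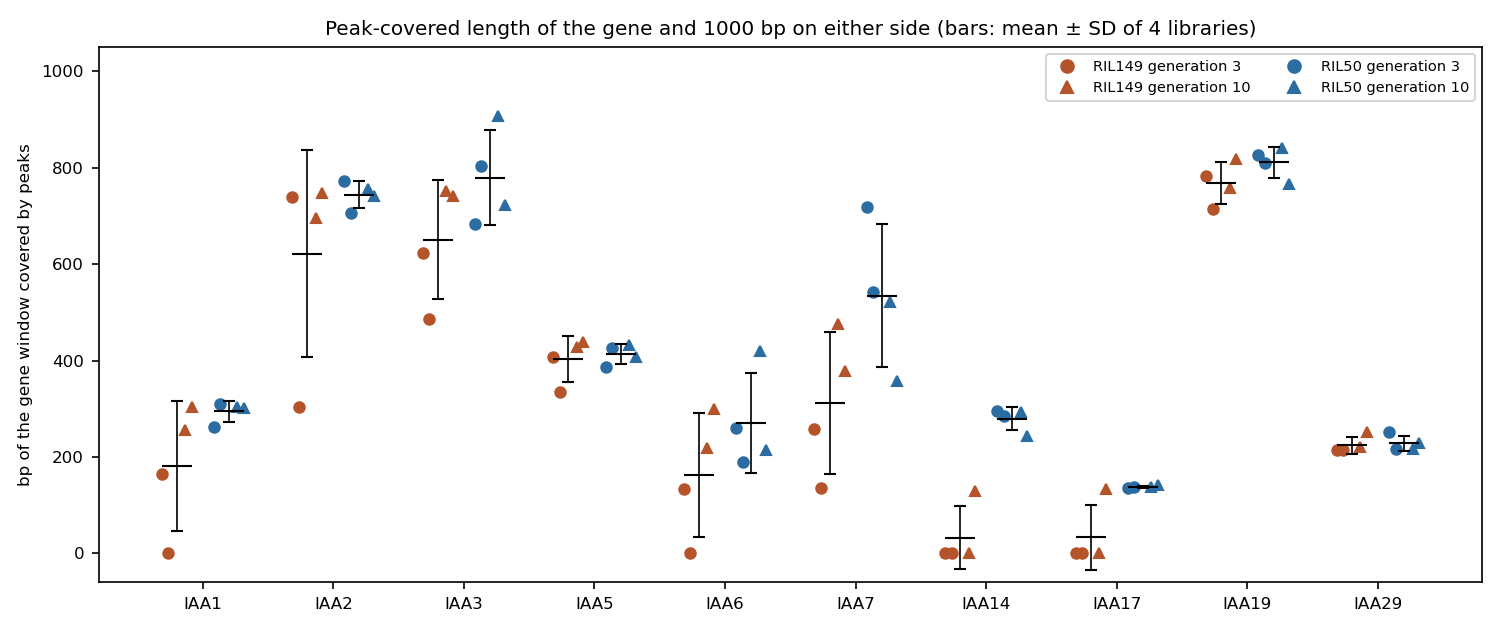
Length of each gene's window covered by peaks, in bp, for every library (orange RIL149, blue RIL50; circles generation 3, triangles generation 10), with the mean and SD of the 4 libraries of a line. At IAA14 the RIL50 libraries sit between 244 and 295 bp and the RIL149 libraries between 0 and 130 bp.

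IAA14 showed the widest separation of the lines. This gene is known as a repressor of lateral root initiation. Covered length was 295 and 286 bp in RIL50 generation 3 and 293 and 244 bp in RIL50 generation 10. In RIL149 it was 0 and 0 bp at generation 3 and 0 and 130 bp at generation 10. The lines did not overlap. Every RIL50 library lay above every RIL149 library, as at 3.82% of the genes tested (1.28% in the reverse direction). The region (chromosome 4, 8350026 to 8350330) straddled the higher-coordinate end, with summits 83 to 177 bp inside the gene. Its folds in RIL50 were 9.68 and 5.03 at generation 3 and 5.49 and 6.37 at generation 10, above 62.5% to 81.7% of the peaks of their lists. The peak of RIL149 generation 10 lineage 2 had a fold of 2.87, above 19.2% of its list.

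The test of this difference did not pass. Covered length was 279.5 ± 24.0 bp in RIL50 and 32.5 ± 65.0 bp in RIL149 (SD, n = 4 each), a difference of 1.62 ± 0.30 (SE) on the scale of log2(bp + 100). limma gave an adjusted p of 0.0687 over all genes, and the two-sided exact permutation test gave p = 0.0286, the smallest its 70 arrangements allow. Both tests treat the 4 libraries of a line as separate units, although they are lineages 1 and 2, each sampled at generations 3 and 10. The adjusted p ranged from 0.00116 to 0.863 over 17 alternatives, and IAA14 passed in 4 of them: equal numbers of top peaks per library (adjusted p = 0.00116), quantile normalization (0.0172), a pseudocount of 500 bp (0.0373), and without RIL149 generation 10 lineage 2 (0.0165). With equal numbers of peaks, IAA14 had a peak in 4 RIL50 libraries and 0 RIL149 libraries. The highest p came with a window of 2000 bp, in which all 8 libraries had a peak. That window takes in a region 1728 bp from the gene (chromosome 4, 8351991 to 8353044), listed in 4 RIL149 and 3 RIL50 libraries, and a region 1329 bp away on the other side, listed in 1 RIL149 library.

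The part of depth in this difference was not tested. The values of the background pileup, a stand-in for depth, were as follows. The RIL50 libraries of lowest background pileup, 8.71 (generation 3 lineage 1) and 8.88 (generation 10 lineage 2), listed the IAA14 peak at folds of 9.68 and 6.37. The 3 RIL149 libraries without it had pileups of 11.8, 12.5 and 13.9, and the RIL149 library with it, generation 10 lineage 2, had the highest pileup of that line, 20.6, and the longest list, 21540 peaks. Those 3 lists held 9974, 8177 and 10584 peaks with folds below 5.03 (58.2%, 62.0% and 54.2% of each list). In the RIL50 lists that share was 48.0% to 62.9%. The lowest fold of IAA14 in RIL50 was 5.03, in generation 3 lineage 2, the library of highest pileup, 25.3. It is set here against lists of lower pileup.

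IAA17 had the same presence pattern, with weaker peaks than IAA14 in the 4 RIL50 libraries and a slightly higher fold (3.34 against 2.87) in the RIL149 library that listed both. This gene is known for the auxin-resistant axr3 mutant. Covered length was 136, 138, 137 and 141 bp in the RIL50 libraries (generation 3 lineages 1 and 2, then generation 10), and 0, 0, 0 and 134 bp in the RIL149 libraries in the same order. The lines did not overlap, as at 3.82% of the genes tested with RIL50 higher, but the nearest values were 134 and 136 bp. The fold of the RIL149 peak, 3.34, lay within the RIL50 range of 2.30 to 3.56. limma gave a log2 difference of 0.94 ± 0.32 (SE) with an adjusted p of 0.428. The exact permutation test gave p = 0.0286, the same as at IAA14. The region (chromosome 1, 1136125 to 1136281) lay inside the lower-coordinate end, and its 5 summits fell within 8 bp. Its folds of 2.30 to 3.56 were above 11% to 28.7% of the peaks of their lists, and its widths of 134 to 141 bp were near the narrowest peaks listed in any library, 120 to 133 bp. With equal numbers of top peaks, IAA17 had a peak in 1 library, of RIL50. With windows of 2000 bp it had one in all 8.

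A peak in 4 RIL50 libraries and at most 1 RIL149 library was found at 2 of the 10 genes, IAA14 and IAA17, and at 1.14% of genes with a peak; the reverse was found at 0 of the 10 and at 0.536%. This rule was chosen after the values of both genes had been seen. None of the 10 genes had a peak in 4 libraries of one line and 0 of the other, against 0.626% of genes only in RIL50 and 0.382% only in RIL149. The exact pattern of IAA14 over the 8 libraries occurred at 78 other genes (0.387% of genes with a peak), of which IAA17 was the only one in the auxin lists.

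**Figure D3:**
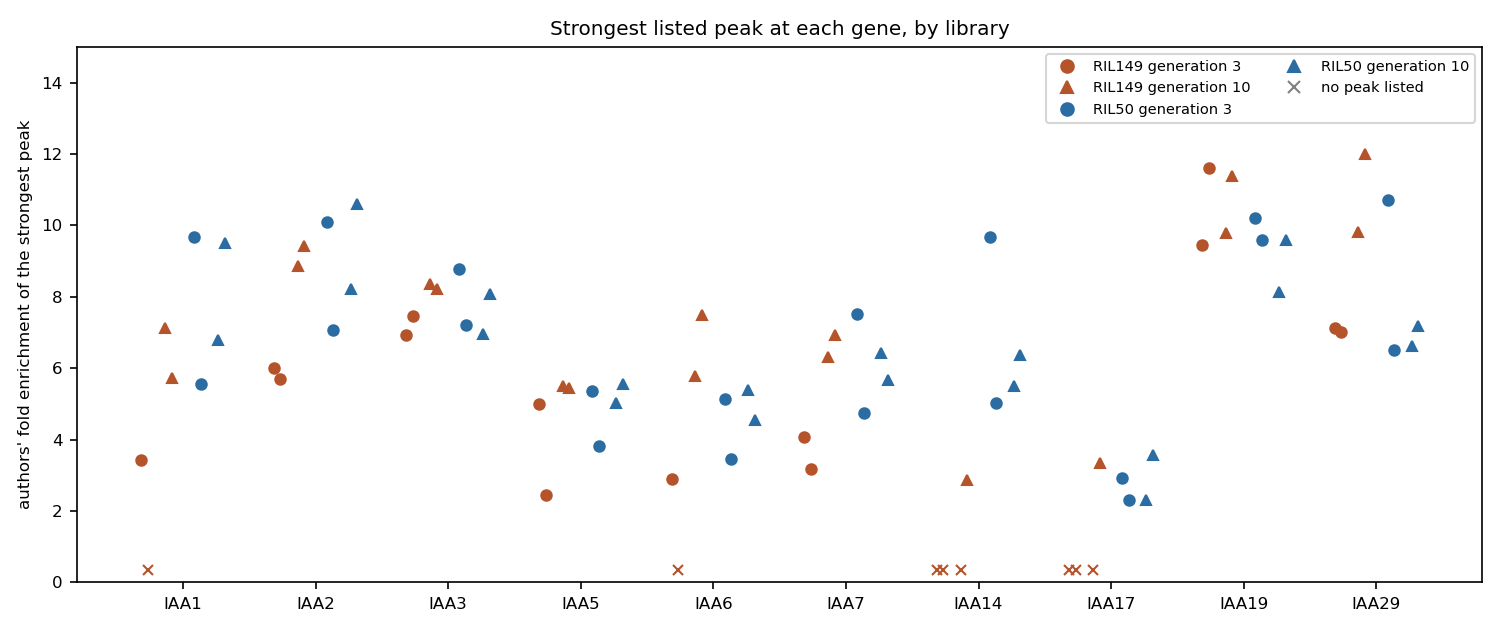
The authors' fold enrichment of the strongest listed peak at each gene, by library; crosses at the bottom mark libraries with no listed peak. IAA17 is listed at 2.30 to 3.56, the lowest of the 10 genes in each RIL50 library, and IAA14 is listed at 5.03 to 9.68 in RIL50 and at 2.87 in 1 RIL149 library.

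Several of the genes are neighbours on their chromosome. IAA3 and IAA17 lie 6388 bp apart on chromosome 1, IAA14 and IAA1 10732 bp apart on chromosome 4, and IAA2 and IAA7 12510 bp apart on chromosome 3, with 0 protein-coding genes between them in each case. IAA3 was open in all 8 libraries beside IAA17 with 5, IAA1 in 7 beside IAA14 with 5, and IAA2 and IAA7 both in 8. The windows of the partners do not overlap. IAA7 and IAA14 are close paralogs, as are IAA2 and IAA1. The main region of IAA7 (chromosome 3, 8196791 to 8197179), 174 to 246 bp inside its higher-coordinate end, was listed in all 8 libraries with folds of 3.17 to 7.52. An outer region of IAA7 (chromosome 3, 8197606 to 8197975) had the same count by line as IAA14, 4 RIL50 libraries and 1 RIL149 library, but the RIL149 library was that of generation 10 lineage 1. Its folds were 2.22 to 3.6.

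In all 10 genes the mean log2 covered length was higher in RIL50 than in RIL149, and 0 of the 10 differences passed limma's test. The background was 1.46% of 18189 genes tested (265 genes; 0.924% were higher in RIL50). Leaving out 1 library at a time moved the 265 calls between 109 and 386, with 109 without RIL149 generation 3 lineage 1. At an unadjusted p under 0.05, 2 of the 10 genes differed, IAA14 and IAA17, against 8.65% of all. The median difference was 0.46 over the 10 genes and 0.091 over all genes, of which 68.7% lay above 0. The difference was smallest at IAA29 (0.016 ± 0.12, SE), IAA5 (0.035 ± 0.10) and IAA19 (0.071 ± 0.078). After quantile normalization these 3 fell below 0 and the medians were 0.27 and -0.022. RIL149 generation 3 lineage 2 had the lowest covered length of the 8 libraries at 7 of the 10 genes and at 53.9% of all. Without that library the median was 0.21 over the 10 genes and -0.015 over all, and IAA5 was below 0. IAA5 or IAA29 also fell below 0 without RIL50 generation 3 lineage 2 or 1. The share that its low peak number has in these differences was not tested. Width at the 7 regions open in every library was tested apart from presence, as the summed width of a library's peaks in the region. At IAA3 that sum takes in the main and the outer peak. 0 of the 7 passed limma between lines (lowest adjusted p = 0.736), against 0.284% of 10916 such regions.

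**Figure D4:**
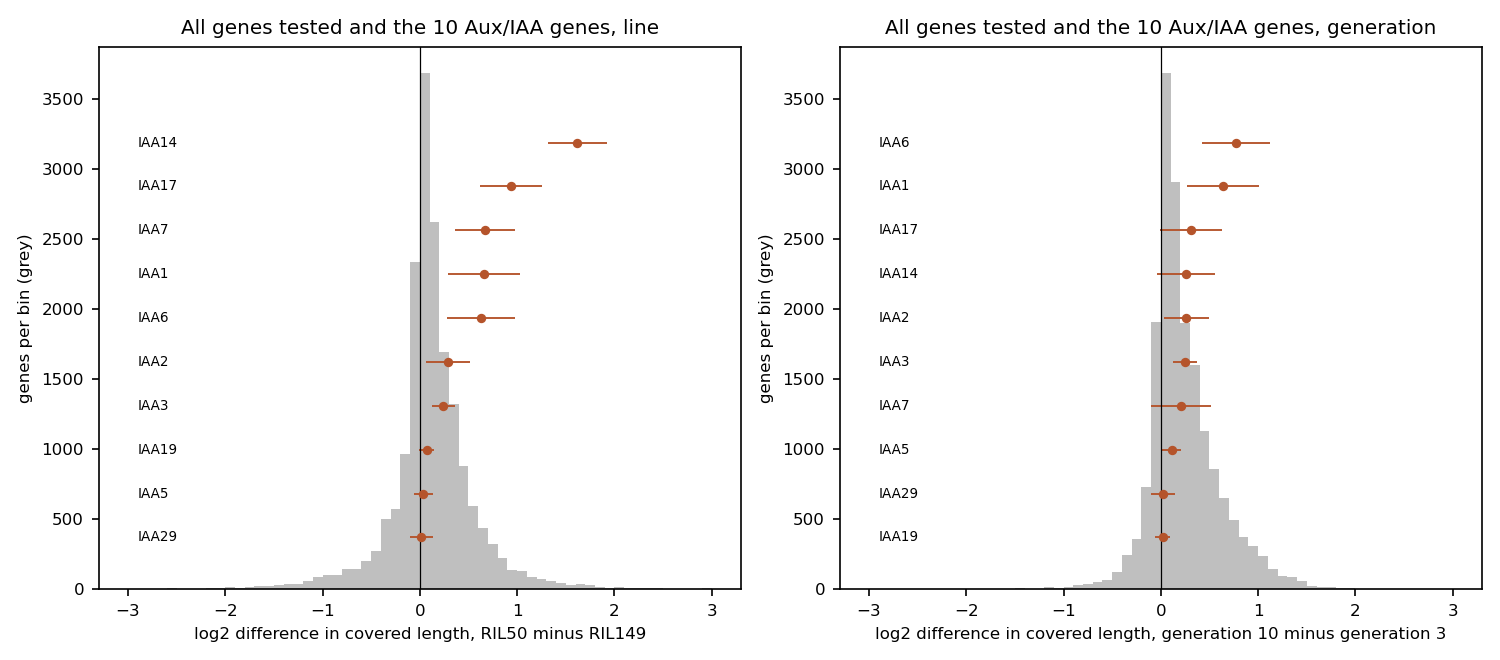
Log2 difference in covered length, RIL50 minus RIL149 (left) and generation 10 minus generation 3 (right); grey bars count the 18189 genes tested in bins of 0.1, and orange points with SE bars are the 10 Aux/IAA genes, spread vertically for legibility. Of the 10 genes, IAA14 lies farthest out between lines, at 1.62.

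Between generations covered length was higher at generation 10 in the fitted mean of all 10, with a median of 0.25 against 0.16 over all genes, of which 80.3% lay above 0. 0 of the 10 passed limma (lowest adjusted p = 0.683), against 0.022% of all genes, and 0 of the 10 had an unadjusted p under 0.05, against 7.44%. The largest differences were at IAA6 (0.77 ± 0.35, SE) and IAA1 (0.64 ± 0.37), the genes without a peak in RIL149 generation 3 lineage 2. Without that library, and likewise without RIL149 generation 10 lineage 2, 7 of the 10 lay above 0 and the median was 0.11. After quantile normalization 5 of the 10 lay above 0. In RIL149 lineage 2 all 10 genes gained covered length from generation 3 to 10, in RIL149 lineage 1 and RIL50 lineage 1 6 did, and in RIL50 lineage 2 4 did. None of the genes was open in 4 libraries of one generation and 0 of the other, against 0.313% only at generation 10 and 0.0% only at generation 3. With at most 1 library of the other generation the count was again 0, against 1.15% and 0.0248%. Covered length separated the generations at 0 of the 10 genes, against 4.11% with generation 10 higher and 0.187% with generation 3 higher.

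Summed covered length at IAA7 went in opposite directions in the lines. Covered length went from 259 to 476 bp and from 135 to 379 bp in the RIL149 lineages, and from 718 to 521 bp and from 542 to 357 bp in the RIL50 lineages. The main region alone went from 348 to 365 bp in RIL50 lineage 1 and from 265 to 209 bp in lineage 2. In RIL149 it went from 259 to 341 bp and from 135 to 379 bp. The weaker outer region went from 370 to 156 bp and from 277 to 148 bp in the RIL50 lineages. The change of summed covered length in RIL50 less that in RIL149 was -1.30 ± 0.40 (SE) on the log2 scale. Limma's interaction test did not pass (adjusted p = 0.272, unadjusted p = 0.0175). A gain in both RIL149 lineages with a loss in both RIL50 lineages occurred at 17% of all genes and the reverse at 0.066%, and the peak numbers of the lists moved the same way. None of the 10 genes passed the interaction test, against 0.0165% of all genes (1 of the 10 and 13.4% of all at an unadjusted p under 0.05). The interaction was above 0 at 0 of the 10 genes and at 9.45% of all, and after quantile normalization at 8 of the 10. Without RIL149 generation 3 lineage 1, IAA1 (adjusted p = 0.0216) and IAA2 (0.026) passed limma's interaction test and 2432 genes did in all; that fit leaves 1 library in RIL149 at generation 3.

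The other genes of the auxin response gave the context. Of 58 further genes in 6 lists, 37 had a peak in all 8 libraries and 7 in none, and 0 passed limma between lines, between generations or for the interaction. All receptor and corepressor genes had peaks in all 8 libraries: 6 of 6 co-receptor genes and 5 of 5 TOPLESS genes. AFB4 led the co-receptors with a median covered length of 1490 bp. At TPR4 the lowest covered length was 23 bp, against a median of 478.5 bp. Of 12 auxin response factor genes, 6 were open in all 8, among them ARF2, ARF6 and ARF3. ARF4, ARF5 and ARF7 had no peak in any library. ARF5 is MONOPTEROS, an activator of embryo and vascular patterning, and ARF7 an activator of tropism and lateral root formation.

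Of the remaining 19 Aux/IAA genes, 9 had peaks in all 8 libraries, including IAA16, IAA9 and IAA4, and IAA15, IAA30, IAA32 and IAA33 had none in any. IAA16 had the longest covered length of the 29 Aux/IAA genes, with a median of 1951 bp over the libraries. IAA28 had a peak in 2 libraries, both of RIL50, and IAA10 in 3 of RIL149 and 1 of RIL50. The median difference between lines was 0.07 over the 14 of these genes that passed the filter. Of 9 genes of auxin synthesis and transport, 6 were open in all 8, including the carriers AUX1, PIN4 and PIN7. The auxin synthesis gene YUC2 had a peak in 2 libraries, both of RIL149 at generation 10. Of 7 GH3 and SAUR genes, which auxin induces early, 5 were open in all 8, including SAUR15, GH3.2 and GH3.5. No gene of these lists was open in 4 libraries of one line or generation and 0 of the other. In covered length, every RIL50 library lay above every RIL149 library at IAA13 and GH3.2, as at IAA14 and IAA17. The means were 256.75 against 149.25 bp at IAA13 and 1069.75 against 822.75 bp at GH3.2. Neither passed limma between lines (adjusted p = 0.715 and 0.623). No gene of these lists showed the reverse.

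**Figure D5:**
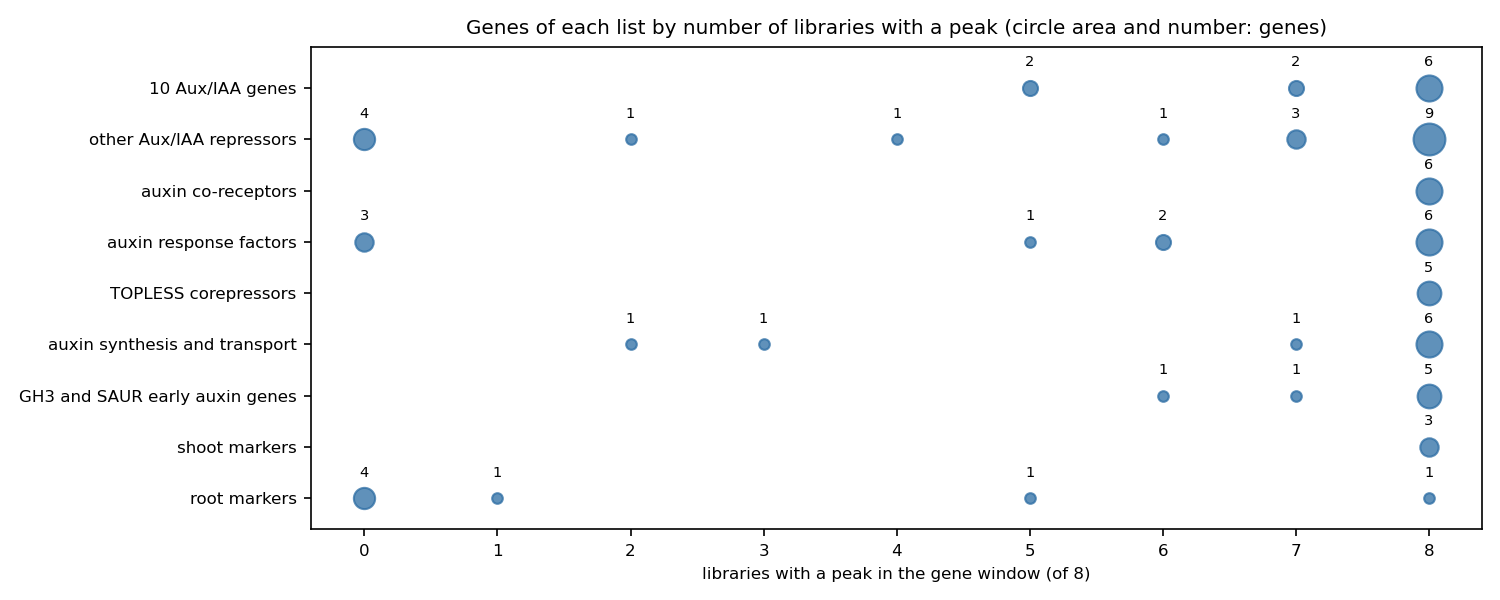
Genes of each list by the number of libraries, of 8, with a peak in the gene window; circle area and the number above it give the count of genes. The 6 co-receptor and 5 TOPLESS genes all sit at 8 libraries, while the other Aux/IAA genes and the response factors include 4 and 3 genes at 0.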

How the data were processed

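Peak lists of 8 shoot ATAC-seq libraries were used, each called on 1 library. Tools named in the submitters' processing notes, with no role given, were MACS2 2.2.9.1, BWA 0.7.17, Trimmomatic 0.39 and Picard, and the build was TAIR10; whether reads were shifted for Tn5, and how organelle reads were treated, is not given in the sources used here. All are narrowPeak files per the file headers. Their deposited fold is a ratio (summit over local background), their deposited score an integer, and their deposited significance values −log10 p and −log10 q. Groups followed the labels, from which the list names differ by 1 generation. Parental alleles at each gene are not in the labels.

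Gene positions were taken from RefSeq's TAIR10.1 table; since the build of the lists carries another name, only distances are given from it. In 6 of 6 bins of 5000000 bp holding the genes, summits matched gene ends best at no offset, in steps of 250 bp. All 78 listed genes were found by locus. Covered length as log2(bp + 100) was tested with limma 3.58.1 (R 4.3.3) on line and generation, or their interaction, over the 18189 genes with a mean of at least 50 bp, with Benjamini-Hochberg adjustment at 0.05; all 10 Aux/IAA genes passed this filter. IAA14 and IAA17 passed it through RIL50, as their RIL149 means were 32.5 and 33.5 bp. With no filter, limma's adjusted p between lines was 0.0721 at IAA14 and 0.39 at IAA17. Widths of merged regions held by all 8 libraries were tested in the same way. The fits were tested on simulated data. All 10 genes are named; of the other lists, genes specific to a line or generation, past a test or without any peak are named, with up to 3 examples of highest covered length and genes sharing the pattern of IAA1, IAA6, IAA14 or IAA17. IAA10, IAA28 and YUC2 were added after their values were seen. The members and lists were chosen with earlier results of these data known.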

Additional observations from a re-analysis of the deposited data

Results flagged for a closer look

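Covered lengths were screened for a library far from the other 3 of its line or generation by Dixon's ratio. Of 40 groups 10 had one, where chance gives about 1 in 20, and neighbouring groups share libraries. The share of such groups over all genes was not computed, so the count does not set these genes apart. RIL149 generation 3 lineage 2 alone had the lowest covered length of the 8 libraries at 53.9% of all genes tested. At IAA2, RIL149 generation 3 lineage 2 with 303 bp lay far below the rest both of its line and of its generation. At IAA14 and IAA17, RIL149 generation 10 lineage 2 with 130 and 134 bp lay far above the other RIL149 libraries, which had 0 bp; with 3 libraries at 0 any value above 0 gives the highest ratio, so these 2 say no more than that 1 library had a peak. At IAA17, RIL149 generation 10 lineage 1 with 0 bp lay below the other generation 10 libraries. At IAA1, RIL50 generation 3 lineage 1 with 263 bp was low in its line and RIL149 generation 10 lineage 1 with 257 bp low in its generation. At IAA3, RIL50 generation 10 lineage 1 with 906 bp was high in its generation. At IAA29, RIL149 generation 10 lineage 2 was high in its line and RIL50 generation 3 lineage 1 high in its generation, both with 251 bp.

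Summed covered length at IAA7 moved in opposite directions in the lines: its mean changed by 230.5 bp in RIL149 and by -191 bp in RIL50 from generation 3 to 10. Limma's interaction test did not pass (adjusted p = 0.272, and 0.0531 to 0.676 over the alternatives). The main region alone did not fall in every RIL50 lineage: it went from 348 to 365 bp in lineage 1 and from 265 to 209 bp in lineage 2.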

How the results depend on the processing

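With equal numbers of top peaks per library, the weak peak of IAA17 was left in 1 library of 5; no alternative varied depth, so what depth limits was not tested. Genes called between lines numbered 265, 406 with equal numbers of top peaks, 478 with quantile normalization, and 109 to 386 with 1 library left out (109, 124, 144, 145 and 132 without RIL149 generation 3 lineage 1, RIL149 generation 10 lineage 1, and RIL50 generation 3 lineage 1, generation 3 lineage 2 and generation 10 lineage 1). Calls between generations numbered 4, 1 with 2000 bp windows or a pseudocount of 500 bp, 37 with equal numbers of peaks, 61 with a pseudocount of 10 bp, 48 with no filter, and 0 to 6 with 1 library left out. Interaction calls numbered 3, 0 with 500 bp windows or quantile normalization (2019 and 1558 genes at an unadjusted p under 0.05, limma), 7 with 2000 bp windows, 81 with a −log10 q of at least 5, 62 with equal numbers of peaks, 434 with a pseudocount of 10 bp, 63 with no filter, and 0 to 2432 with 1 library left out. Regions of differing width between lines numbered 31, 96 with quantile normalization and 0 to 51 with 1 library left out. With the lineage number as a replicate block, shared across the lines, these width calls fell to 2 and calls between lines were 183. That block joins lineages of different lines that bear the same number. With each lineage of each line as its own block, calls between generations were 0 (963 at an unadjusted p under 0.05, limma). None of the 10 Aux/IAA genes passed with either block. Genes open only in 1 line numbered 203 and 219 to 336 with 1 library left out (336 without RIL149 generation 3 lineage 2), and only in 1 generation 63 and 73 to 155; leaving out a library relaxes both rules. The count of 6 Aux/IAA genes open in all libraries was 5 to 8 under the alternatives. The causes were not tested.

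Of the alternative values of the differences between lines of the 10 genes, 158 kept their direction and their side of the threshold, 4 passed it (all IAA14) and 6 changed sign. The latter were quantile normalization at IAA5 (-0.079), IAA19 (-0.015) and IAA29 (-0.097), and a left-out library at IAA5 (range -0.025 to 0.066) and IAA29 (-0.028 to 0.057). Between generations 156 kept both and 12 changed sign: quantile normalization at IAA5 (-0.066), IAA14 (-0.34), IAA17 (-0.22), IAA19 (-0.088) and IAA29 (-0.25), equal numbers of peaks at IAA14 (-0.043), and a left-out library at IAA2 (range -0.0034 to 0.42), IAA7 (-0.047 to 0.42), IAA14 (-0.052 to 0.43), IAA19 (-0.012 to 0.052) and IAA29 (-0.018 to 0.066). The correlation over genes of deviations from group means between generations was -0.0126 in RIL149 and 0.0204 in RIL50. With 2 libraries in each group, the deviations of the lineages mirror each other. Each line thus gives only the contrast between its lineages, which cannot show whether lineages pair the libraries. The replicate block was kept as an alternative.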

Other observations

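Of the 6 other auxin lists, the response factors had the interaction median farthest from 0. The following 3 genes were picked after their values were seen. ARF19, an activator of lateral root formation, changed by 445.5 bp of covered length in RIL149 and by -237.5 bp in RIL50 from generation 3 to 10 (limma interaction -1.19 ± 0.18, SE, adjusted p = 0.0822). ARF16, a repressor that acts in the root cap, changed by 202 and -355 bp (adjusted p = 0.121, limma), and ARF2 by 880.5 and -116.5 bp (adjusted p = 0.197, limma). None passed the test. The median interaction was -1.04 over the 9 response factors tested and -0.47 over all genes, and the peak numbers of the lists moved in the same direction.

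Around IAA14, 2 of the 10 other regions within 20000 bp were open in all 8 libraries. None of those 10 was listed in 4 libraries of one line and 0 of the other. Around IAA17, 9 of the 11 other regions within 20000 bp were open in all 8 libraries. One, at ERS2, a gene of the ethylene receptor family (chromosome 1, 1158339 to 1158646), was listed in 4 RIL149 libraries and 0 RIL50 libraries. It lay 19676 bp from IAA17 and had folds of 2.35 to 3.25. The share of all regions with such a pattern was not computed. Among genes with a peak, 0.382% had one only in RIL149. The nearest listed peaks to IAA17 in the 3 RIL149 libraries without its own lay 1266 to 1274 bp from the gene.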
